A study of Saccharomyces cerevisiae with 5 samples.

Results

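Budding yeast cells that overexpress 6 replication initiation factors in galactose were set against wild-type cells, with 2 samples on each side of a series of 5. The 2 galactose samples (galactose 1 and 2) are strain yIW160-SSDDCS, in which Sld2, Sld3, Sld7, Dpb11, Dbf4 and Cdc45 are raised by 2% galactose for 4 h. The fifth sample is the same strain in 2% glucose, where the factors are at their normal level, and it is given beside the others where it bears on a result. The 2 wild-type samples (wild type 1 and 2) are strain yIW160, whose medium is not among its own labels. All 5 samples are asynchronous cultures grown at 30 degrees and kept in doxycycline at 40 µg/ml for the last 2.5 h, and each was deposited as a fitted profile of its Okazaki fragments. The galactose and glucose samples were read single-end by Ion Torrent and the wild-type samples paired-end by Illumina, so platform and strain cannot be told apart between galactose and wild type, and galactose as a sugar cannot be told apart from the raised factors.

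Replication starts at origins, where a pair of helicases is loaded in G1 and switched on in S phase. Sld3 with Sld7 brings Cdc45 to the loaded helicase, Sld2 with Dpb11 brings in further helicase subunits and DNA polymerase epsilon, and Dbf4 is the activating subunit of the Cdc7 kinase that marks the helicase for this step. In wild-type yeast these factors are scarce relative to the number of licensed origins, and early origins use them first. Each fork leaves Okazaki fragments on its lagging strand. With DNA ligase I repressed by doxycycline the fragments stay unjoined, and the strand they lie on tells which way the fork moved. An origin appears as a step toward rightward forks along the chromosome, and a zone where forks meet and terminate as a step back toward leftward forks.

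In the fitted profiles an initiation site is where rightward and leftward forks set out together, in a fraction of at least 0.1 of chromosome copies. That fraction is called its probability here. The authors' fit moves every fork at 2900 bases per minute, so times and distances are tied to each other and fork speed is no measurement. Read depth is unknown, since the files used here hold no counts. The fits of galactose 1 and 2 hold 3345 and 3189 fork segments, that of glucose 4545, and those of wild type 1 and 2 hold 6353 and 6039. This number moved with the groups, and its part in the results below was not tested. The labels do not say whether the samples of a group were separate cultures, so p-values measure only the spread between these samples. With 2 samples against 2, the exact two-sided permutation p of a measure per sample cannot fall below 0.333.

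Galactose cells started more forks per genome copy in the fitted profiles. The summed probability of all sites was 249 and 272 in galactose 1 and 2, 182 in the glucose sample, and 166 and 184 in wild type 1 and 2. The galactose mean was thus 1.49 times the wild-type mean, with no overlap between the groups and an exact permutation p of 0.333. The glucose sample, which shares strain and platform with the galactose samples, lay within the wild-type range. Both the number of sites and their use were higher. The number was 316 and 339 in galactose, 277 in the glucose sample, and 282 and 309 in wild type. The ratio of galactose to wild type was 1.11 for the number and 1.34 for the mean probability. Which of the ratios is larger depends on the minimum that defines a site, since at a minimum of 0.3 they were 1.27 for the number and 1.23 for the mean probability. The mean probability of a site was 0.789 and 0.803 in galactose, 0.657 in the glucose sample, and 0.590 and 0.596 in wild type. The glucose sample thus listed fewer sites than either wild-type sample, at a higher mean probability, although its sum lay within the wild-type range. Sites under 0.5 numbered 37 and 42 in galactose, 74 in the glucose sample, and 95 and 110 in wild type. The groups were apart on each of the 16 chromosomes. The ratio of galactose to wild type ran from 1.24 on chromosome III, where the sums were 7.93 and 8.10 in galactose against 6.40 and 6.54 in wild type, to 1.86 on chromosome VI, where they were 6.75 and 7.39 in galactose against 3.81 and 3.78 in wild type.

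**Figure D1:**
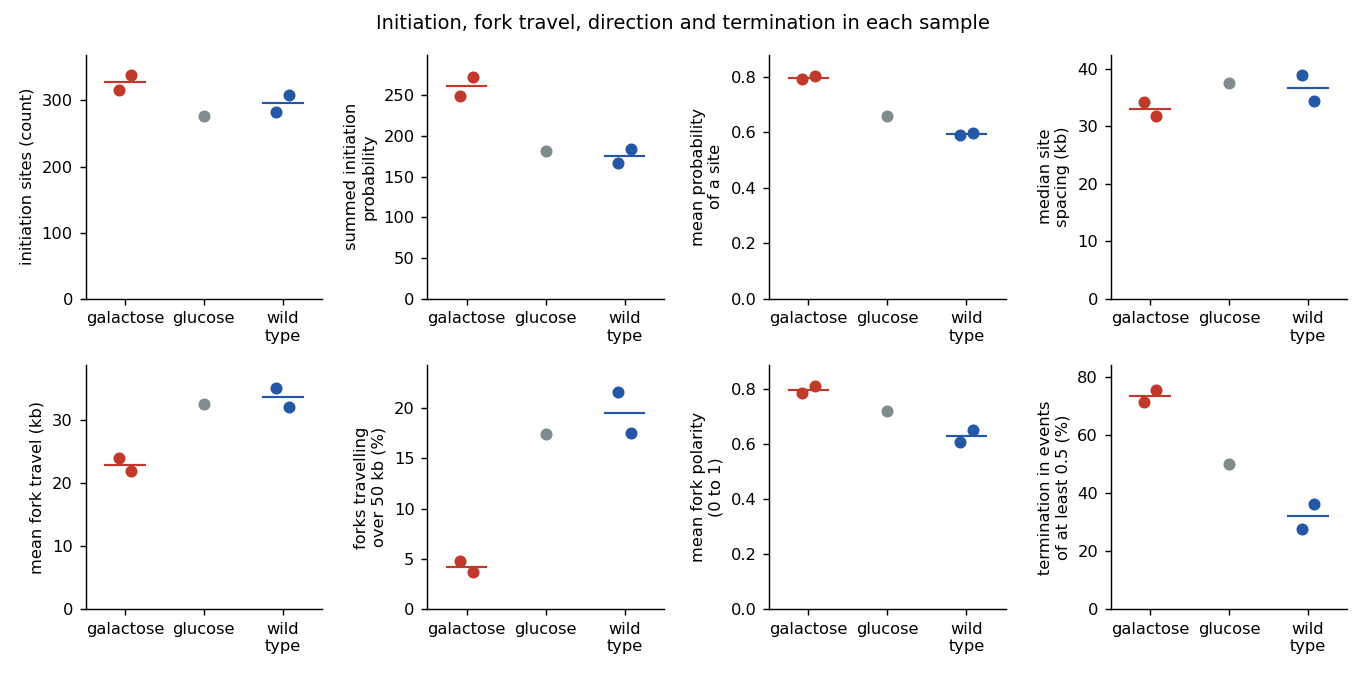
Measures of each sample, with 1 point per sample and a line at the mean of each group of 2, for galactose, glucose and wild type from left to right; every vertical axis starts at 0. The galactose points lie apart from the wild-type points in all 8 panels, nearly touch them in median spacing, and lie apart from the glucose point as well.

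Neighbouring sites stood closer together in galactose, mainly once rarely used sites were set aside. The median distance between adjacent sites was 34.3 and 31.8 kb in galactose, 37.6 kb in the glucose sample, and 39.0 and 34.3 kb in wild type, so galactose 1 and wild type 2 nearly touched. Between adjacent sites of probability at least 0.5 it was 37.4 and 35.6 kb in galactose, 50.0 kb in the glucose sample, and 53.2 and 51.4 kb in wild type. Here the groups were far apart relative to their spread. Spacings over 60 kb numbered 29 and 19 in galactose, 42 in the glucose sample, and 43 and 31 in wild type. The longest spacing overlapped between the groups, at 124.4 and 124.6 kb in galactose against 119.7 and 188.0 kb in wild type. No sample listed sites closer together than 11.03 kb, a property of the fits that matters wherever sites of different groups lie side by side.

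Sites of the 4 samples that lay within 2500 bp of each other were joined into 396 sites, and 0 was entered for a sample without a site. By limma with Benjamini-Hochberg adjustment over all 396, 163 sites (41.2%) were used more in galactose and 17 (4.29%) less. Both galactose samples lay above both wild-type samples at 239 sites (60.4%) and below both at 33 (8.33%). At the 163 sites that rose, the mean probability was 0.798 and 0.835 in galactose, 0.370 in the glucose sample, and 0.331 and 0.350 in wild type. The glucose sample lay below both galactose samples at 152 of these 163. Leaving out any 1 of the 4 samples left 81 to 100 sites higher, and 3 to 46 lower.

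**Figure D2:**
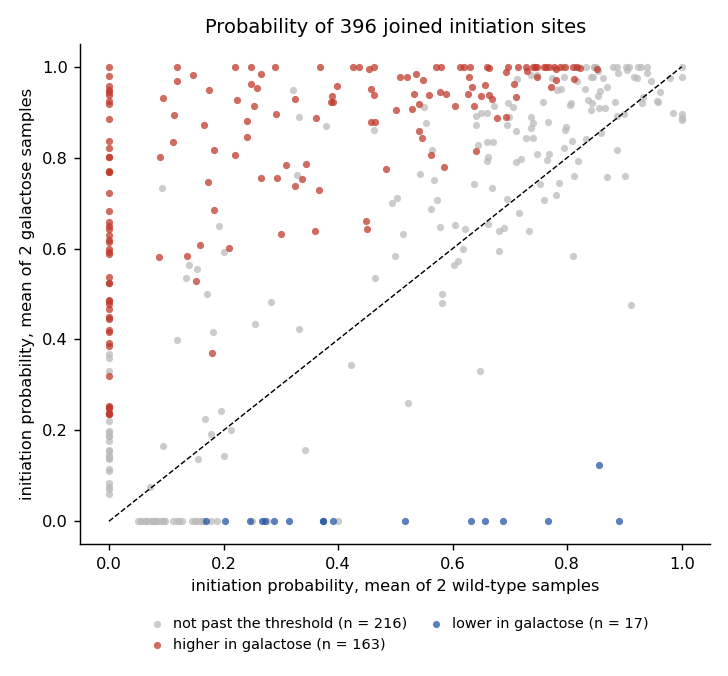
Initiation probability of each joined site as the mean of the 2 galactose samples (vertical axis) against the mean of the 2 wild-type samples (horizontal axis), with the dashed line marking equal use. The 163 sites that were higher in galactose include a column of sites at 0 in wild type, and most of the 17 lower sites lie at 0 in galactose.

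Sites that neither wild-type sample listed, 71 of the 396, supplied 38.9% of the net gain of 85.7 in summed probability between the group means. Sites listed in wild type with a mean under 0.5, here called weak, numbered 130 and supplied 36.6%. The other 195 sites, the strong ones, supplied 24.5%. Of the 71 unlisted sites 47 rose (66.2%, against 41.2% of all 396), and these were 47 of the 48 that both galactose samples listed. The direction of the unlisted sites was fixed by the way they were chosen, and so in part was their share of the gain. A class absent from wild type can only add to it. The mirror class, 49 sites that only wild type listed, had its losses counted among weak and strong sites. These 49 summed to 8.51 and 13.9 in the wild-type samples, and the 71 to 29.9 and 36.7 in galactose. How much of the 38.9% came from spread between samples or from shifted positions was not tested. Of the 130 weak sites 57 rose (43.8%, near the 41.2% of all sites) and 10 fell (7.69%, against 4.29% of all). Of the 195 strong sites 59 rose (30.3%) and 7 fell (3.59%).

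The unlisted sites were used at a mean probability of 0.421 and 0.517 in galactose 1 and 2, and of 0.0649 in glucose, which listed 16 of them. Both galactose samples listed 48 of the 71, and 23 were listed in 1 galactose sample alone. The wild-type fits held an initiation under the minimum of 0.1 at 3. They held little such initiation anywhere, so this low count says little about these sites. Total fork probability was 1.012 and 1.007 times that from the listed sites in wild type 1 and 2. The rightward share, the fraction of forks moving rightward, comes from the same fits, in which an initiation is a step in that share. Its median change from 5 kb left to 5 kb right of the site, 0.424 in galactose against -0.0145 in wild type, therefore follows from how these sites were chosen; in the glucose sample, which did not enter the choice, it was 0.

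Since no sample listed sites closer than 11.03 kb, a galactose site and a wild-type site nearer than that could not both have been listed in 1 sample. A wild-type site lay within 11 kb of 23 of the 71, and 15 of these rose. The other 48 stood farther than that from any wild-type site, and 32 of them rose, at a mean probability of 0.576 and 0.644 in galactose against 0.0606 in glucose. These 48, which by their choice could only add to the net gain, supplied 25.4% of it. Their wild-type neighbours were a median of 59.5 kb apart, and the nearer one was a median of 17.3 kb away.

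The largest of these gains lay on chromosome X at position 654490, where the probability was 1 in both galactose samples, against 0 in glucose and 0 in both wild-type samples (difference 1.00 ± 0.0362, SE; limma adjusted p = 0.00332). The 2 values of each group were equal here, so this SE comes wholly from the spread that limma borrows from other sites. Where the values within each group nearly agree, the SE is likewise mostly borrowed. The site was also chosen for being unlisted in wild type. The nearest wild-type site was 29.3 kb away. Positions are those of the deposited files, whose genome build is not given in the sources used here, so no gene or named origin was assigned to any of them. Chromosome VIII at 212336 came next, with 0.959 and 1 in galactose against 0 in the other 3 samples and with the nearest wild-type site 33.3 kb away (adjusted p = 0.00332). On that stretch of chromosome VIII the wild-type neighbours were 76.8 kb apart. A second site on chromosome X, at 711679, had 0.849 and 1 in galactose and 0 in the other samples.

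Some of the unlisted sites lay near chromosome ends. On chromosome VI at 256426, 13.7 kb from the right end, the probability was 0.940 and 0.957 in galactose and 0.135 in the glucose sample, and no wild-type site lay within 56.2 kb. The fit of wild type 1 held an initiation of 0.0589 there, under the minimum of 0.1. A second site of the same chromosome, at 217412, reached 0.770 and 1 in galactose with 0 elsewhere. On chromosome II at 29070, the probability was 0.976 and 0.859 in galactose and 0 in the other 3 samples, with a wild-type site 13.9 kb away.

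Chromosome XIII held 2 more of the 10 largest gains. At 159382 the probability was 0.874 and 1 in galactose, and at 838402 it was 0.764 and 0.911 in galactose with 0.121 in glucose. The nearest wild-type sites were 21.8 and 22.8 kb away. The last of the 10 had wild-type neighbours close by. On chromosome VII at 917204, with 1 and 0.915 in galactose, wild type 2 had a site of probability 0.166 at a distance of 6.78 kb, and on chromosome V at 212582, with 0.889 and 1 in galactose, both wild-type samples had one 5.06 kb away, of 0.420 and 0.327. Taking in each sample the strongest site within 10 kb, the chromosome V difference becomes 0.571, still higher in galactose.

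Most of the weak sites that rose were listed in both wild-type samples: of these 71 sites, 47 rose and 10 fell. Of the 59 weak sites listed in 1 wild-type sample alone, 10 rose and 0 fell by limma. No fall could pass there. The 0 entered for 1 wild-type sample sets the 2 wild-type values farther apart than any possible fall of the mean. The largest gain in this class lay on chromosome II at 93764, where the probability was 1 in both galactose samples, against 0 in glucose and 0.115 and 0.122 in wild type (difference 0.881 ± 0.0363, SE; adjusted p = 0.00332). On chromosome XI at 15841, 15.8 kb from the left end, it was 1 and 0.964 in galactose, 0.133 in the glucose sample, and 0.151 and 0.144 in wild type. Both sites had nearly the same low value in the 2 wild-type samples and were used in nearly every copy in galactose.

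Other weak sites with steady wild-type values behaved likewise. On chromosome VIII at 168762 the probability was 1 in both galactose samples against 0.267 and 0.227 in wild type, inside a stretch of 112 kb between the wild-type neighbours. The glucose sample had a site of 0.530 at a distance of 2.78 kb, above both wild-type values. On chromosome X at 337234 it was 1 in both galactose samples, 0.383 in the glucose sample, and 0.281 and 0.158 in wild type. On chromosome I at 124486 it was 1 and 0.970 in galactose, against 0.311 and 0.220 in wild type. The strongest glucose site within 10 kb of it had 0.276. In these 3 places both wild-type samples listed the site and neither reached 0.4.

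The remaining 5 of the 10 largest weak gains were listed in 1 wild-type sample alone. They lay on chromosome XVI at 261599, II at 517503, XII at 343719, VII at 319401 and IV at 878116, with galactose means from 0.835 to 0.969 and wild-type means from 0.0950 to 0.174. Their 2 wild-type values differed by 0.190 to 0.349. In 3 of the 5, wild type 2 had another site within 10 kb, of 0.322 on chromosome XVI, 0.330 on II and 0.256 on IV. Taking the strongest site within 10 kb in each sample, the differences at these 3 were 0.689, 0.671 and 0.595, and all passed as higher in galactose (adjusted p from 0.00446 to 0.00901 by limma). The chromosome VII site had the widest spread of the 5, at 0.942 and 0.956 in galactose, 0.410 in the glucose sample, and 0 and 0.349 in wild type (difference 0.775 ± 0.136, SE; adjusted p = 0.0221).

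A site classed by its wild-type mean is drawn toward a change when the same mean is the baseline, so the classes were also set on wild type 1 and the change measured from wild type 2. The 66 sites with a wild type 1 probability under 0.4 then had 0.570 and 0.645 in galactose, against 0.242 in wild type 2, a gain of 0.365. The 114 sites that wild type 1 did not list gained 0.264, the 106 sites from 0.4 to 0.7 gained 0.182, and the 110 sites above 0.7 gained 0.0302. With the roles of the wild-type samples exchanged the gains were 0.241 for weak, 0.426 for unlisted, 0.226 for middle and 0.122 for strong sites. Strong sites gained least either way, while the order of weak and unlisted sites depended on the sample that set the class. A probability cannot exceed 1, so the room to gain differed between classes. In wild type 2 the 110 strong sites already stood at 0.851, against 0.242 for the 66 weak ones. How much of the order follows from this limit was not tested.

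Weak and unlisted sites had later wild-type times than strong ones. The median place of a site in the wild-type order of replication time, from 0 for the earliest to 100 for the latest window, was 58.0 for unlisted, 61.5 for weak, 29.6 for strong and 42.1 for all 396 sites. Unlisted sites also lay where wild-type forks moved mostly one way. The wild-type fork polarity, which is 0 where both directions are equal and 1 where all forks go one way, had a median of 0.597 at unlisted, 0.473 at weak, 0.311 at strong and 0.446 at all sites. Sites used often in wild type split forks both ways around them, and a site used often is reached early relative to its surroundings, so the order of the classes in polarity and, in part, in time follows from their use.

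Of the 17 sites that were used less, 11 had a galactose site within 11 kb. The 10 largest losses divide the same way: for 8 of them a galactose sample listed a site within 10 kb, at distances from 2.56 to 8.76 kb. On chromosome XIV at 563991 the probability was 0 in both galactose samples and in glucose, against 0.782 and 1 in wild type (difference -0.89 ± 0.0895, SE; adjusted p = 0.00834). Galactose 2 had a site of 0.897 at a distance of 3.91 kb and galactose 1 had none within 10 kb, so this loss was complete in 1 galactose sample only. Taking the strongest site within 10 kb in each sample, the difference was -0.443 and did not pass (adjusted p = 0.353 by limma).

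Where the strongest site within 10 kb was taken in every sample, several losses changed sign. On chromosome VII at 571666 the wild-type values were 0.607 and 0.656, and galactose sites 3.15 kb away had 0.799 and 0.805, which turns a difference of -0.631 into a gain of 0.171. The nearest glucose site was 62.7 kb away. The losses on chromosome XVI at 379094, XII at 730819 and V at 217668 turned in the same way. There the strongest glucose sites within 10 kb had 0.674, 0.383 and 0.409. On chromosome XV at 490263 the neighbouring galactose sites had 0.606 and 0.592, against 0.723 and 0.652 in wild type, and the loss no longer passed (adjusted p = 0.224 by limma).

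A few losses had no galactose site nearby, or only a weak one. On chromosome IV at 463025 the probability was 0.247 and 0 in galactose, 0.699 in the glucose sample, and 0.841 and 0.871 in wild type, with no other galactose site within 10 kb (difference -0.732 ± 0.1000, SE; adjusted p = 0.0127). On chromosome V at 569829, 7.04 kb from the right end, it was 0 in both galactose samples and in glucose, against 0.472 and 0.309 in wild type, and the nearest galactose site was 20.3 kb away. On chromosome IV at 555238 it was 0 in both galactose samples, 0.757 in the glucose sample, and 0.713 and 0.818 in wild type, with a galactose site of 0.241 and 0.232 at 3.67 kb. On chromosome XII at 230998 it was 0 in galactose, 0.788 in the glucose sample, and 0.642 and 0.672 in wild type, with galactose sites of 0.375 and 0.468 at 8.76 kb. Both still passed as lower when the strongest site within 10 kb was taken. Of the 17 lower sites, the glucose value was nearer to the wild-type mean at 8, against 132 of the 163 higher sites.

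**Figure D3:**
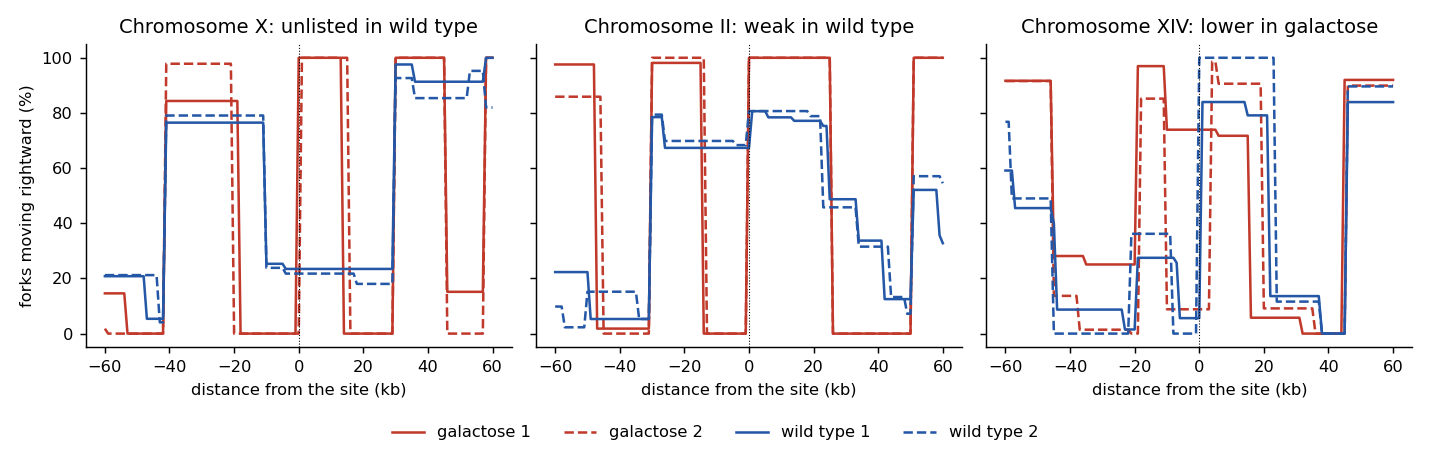
Percent of forks moving rightward within 60 kb of the first site in each list, in the 2 galactose and 2 wild-type samples: chromosome X at 654490 (unlisted in wild type), chromosome II at 93764 (weak in wild type) and chromosome XIV at 563991 (lower in galactose). At the first 2 sites both galactose lines step up to 100% while the wild-type lines change little, and at the third both wild-type lines step up while the galactose 2 line steps up 3.91 kb to the right.

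Forks ran shorter distances in galactose. The mean distance from a site of initiation to the place of termination was 23.9 and 21.9 kb in galactose, 32.4 kb in the glucose sample, and 35.1 and 32 kb in wild type. The ratio of the means was 0.682, and the glucose sample lay within the wild-type range. In these fits the mean distance follows almost wholly from the summed probability, because all forks together copy the same genome length. It is therefore no separate evidence. The difference was largest in the tail. Forks that ran over 50 kb made up 4.81% and 3.69% of all forks in galactose, 17.4% in the glucose sample, and 21.5% and 17.5% in wild type. The 90th percentile of this distance was 40.9 and 36.4 kb in galactose, against 67.5 and 61.7 kb in wild type. The share of the genome copied more than 50 kb from its origin was 3.04% and 2.32% in galactose, 11.5% in the glucose sample, and 14.6% and 11.6% in wild type.

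**Figure D4:**
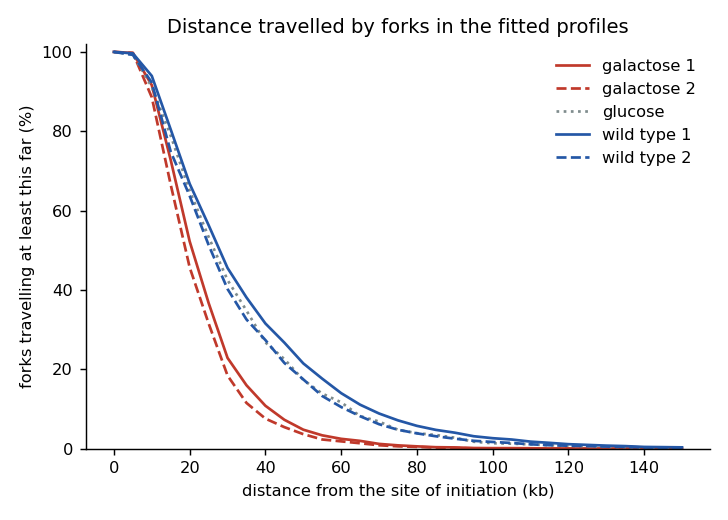
Percent of forks that travel at least the distance on the horizontal axis (kb from the site of initiation), 1 line per sample. The 2 galactose lines fall below the wild-type and glucose lines from 15 kb on, and at 50 kb they stand at 4.81% and 3.69% against 21.5% and 17.5% in wild type.

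Fork direction at a given position was more uniform from copy to copy in galactose. Mean polarity along the genome was 0.784 and 0.809 in galactose, 0.721 in the glucose sample, and 0.608 and 0.651 in wild type. Positions where at least 90% of forks went one way made up 58.0% and 65.6% of the genome in galactose, 47.8% in the glucose sample, and 28.0% and 36.8% in wild type. Glucose stood between the groups on this measure, unlike for summed probability and fork travel, and so did the number of fork segments in its fit. Positions with 40% to 60% rightward forks made up 4.82% and 3.81% in galactose, 5.89% in the glucose sample, and 9.37% and 9.32% in wild type. The share of the genome copied mainly rightward did not separate the groups, at 49.1% and 47.9% in galactose against 48.5% and 48.3% in wild type.

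Over 2383 windows of 5 kb, the rightward share rose in 236 (9.9%) and fell in 223 (9.36%), 459 in all (19.3%), by limma with adjustment over all windows. In 330 windows (13.8%) the main direction was opposite in the groups, with both galactose samples on one side of 0.5 and both wild-type samples on the other: 180 turned to rightward and 150 to leftward. The mean absolute difference in rightward share was 0.184 between the group means, 0.0842 between the 2 galactose samples and 0.0852 between the 2 wild-type samples. With either galactose sample left out no window passed, although 13.9% to 16.1% of windows in each direction kept an unadjusted p under 0.05. Adjacent windows are copied by the same forks, so they are not independent. Of the 459 windows, 78.2% lay within 20 kb of a site that had risen or fallen, against 50.6% of all windows. Site probability and rightward share come from the same fitted forks. A changed site therefore brings a change of direction beside it, and the 78.2% is no separate evidence.

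Most regions with the largest changes of direction held or adjoined sites described above. On chromosome VI from 240001 to 260000, which holds the unlisted site at 256426, the rightward share was 0.224 and 0.211 in galactose, 0.895 in the glucose sample, and 0.951 and 1 in wild type. On chromosome II from 30001 to 45000, right of the unlisted site at 29070, it was 0.976 and 0.859 in galactose, 0 in the glucose sample, and 0.212 and 0.0701 in wild type. These stretches were copied by forks from opposite sides in the 2 groups. On chromosome II from 80001 to 95000, which holds the weak site at 93764, it was 0.100 in both galactose samples, 0.817 in the glucose sample, and 0.678 and 0.705 in wild type.

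The same pairing of a gained site and a turned stretch, both read from the same fitted forks, was found on other chromosomes. On chromosome VIII from 155001 to 170000, which holds the weak site at 168762, the rightward share was 0.100 in both galactose samples, against 0.634 and 0.758 in wild type. On chromosome X from 335001 to 355000, which holds the weak site at 337234, it was 0.851 and 0.875 in galactose, against 0.241 and 0.0477 in wild type. On chromosome XI from 15001 to 30000, which holds the weak site at 15841, it was 0.863 and 0.874 in galactose, against 0.148 and 0.213 in wild type. In all 3 the galactose samples lay within 0.03 of each other.

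A further 3 of the 10 regions lay beside sites that rose but were not among the largest gains. They were on chromosome XIV from 660001 to 690000, with 0.05 and 0.0833 in galactose against 0.750 and 0.752 in wild type, on chromosome XIII from 670001 to 685000, with 0.0697 and 0.0474 in galactose against 0.619 and 0.666 in wild type, and on chromosome II from 170001 to 185000, with 0.884 and 0.967 in galactose against 0.238 and 0.276 in wild type. The region on chromosome VIII from 75001 to 90000 had no site that rose or fell within 10 kb. Its rightward share was 0.932 and 0.954 in galactose, 0.312 in the glucose sample, and 0.184 and 0.272 in wild type.

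Mean replication time is counted from the earliest position of each sample, so a shift of all times cannot be told from a different zero. Averaged over positions, the mean time was 9.11 and 10.8 min in galactose, 14.0 min in the glucose sample, and 12.9 and 13.7 min in wild type. By limma 186 windows (7.81%) were earlier in galactose and 0 later, against 24.2% and 5.83% at an unadjusted p under 0.05. None passed when each sample was centred on its own median, when limma modelled the variance as a trend, or when any 1 of the 4 samples was left out. The times are therefore given as values. On chromosome VI from 245001 to 270000 the mean time was 2.15 and 2.00 min in galactose, 16.9 min in the glucose sample, and 18.2 and 18.9 min in wild type. On the first 280000 bases of chromosome IV it was 6.86 and 11.95 min in galactose, 19.3 min in the glucose sample, and 28.4 and 30.7 min in wild type.

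The other named regions with earlier times also lay toward chromosome ends. On chromosome II from 745001 to 810000 the mean time was 4.85 and 4.45 min in galactose, against 26.6 and 20.6 min in wild type. The stretch of chromosome VII from 910001 to 1080000, which holds the site at 917204, had mean times of 7.66 and 6.25 min in galactose, against 22.5 and 23.0 min in wild type. Over the first 35000 bases of chromosome VI it was 7.45 and 7.07 min in galactose, against 25.03 and 20.03 min in wild type. Ranking windows by wild type 1 and measuring from wild type 2, windows of quartile 1, the earliest, differed by -0.221 min and those of quartile 4 by -8.7 min. With the roles of the wild-type samples exchanged the differences were -0.0439 and -6.60 min. Times count from 0, so the earliest windows had less room to move earlier.

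Termination was concentrated in fewer, stronger events in galactose. The number of termination events, where converging forks end together, was 677 and 666 in galactose, 747 in the glucose sample, and 927 and 889 in wild type. Events used in at least a fraction of 0.5 of copies numbered 220 and 239 in galactose, 120 in the glucose sample, and 64 and 90 in wild type. They held 71.4% and 75.3% of all termination in galactose, 49.8% in the glucose sample, and 27.7% and 36.1% in wild type. Per initiation there were 2.71 and 2.45 termination events in galactose, 4.11 in the glucose sample, and 5.58 and 4.83 in wild type. The order of the groups is the same as that of the number of fork segments in the fits, and glucose stood between the groups here too.

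Termination was placed within 108 intervals bounded by the same adjacent sites of probability at least 0.3 in all 4 samples. The termination position was the point where the rightward share had fallen through 50% of its local range between the bounding sites. Where forks pass through a partly used site, this is not the point of a 50% rightward share. The median length of the intervals was 35.2 kb. The position differed between the groups in 46 (42.6%), farther right in 26 (24.1%) and farther left in 20 (18.5%), and 43 of the 46 moved toward the midpoint of the interval. The mean distance from the midpoint was 4.68% and 4.16% of the interval in galactose, against 10.2% and 11.1% in wild type. Forks met within 10% of the midpoint in 98 and 98 intervals in galactose, against 59 and 58 in wild type. Over the 96 intervals matched in all 5 samples, the glucose sample resembled wild type: the mean distance was 4.55% and 4.08% in galactose, 11.1% in the glucose sample, and 9.95% and 10.4% in wild type.

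**Figure D5:**
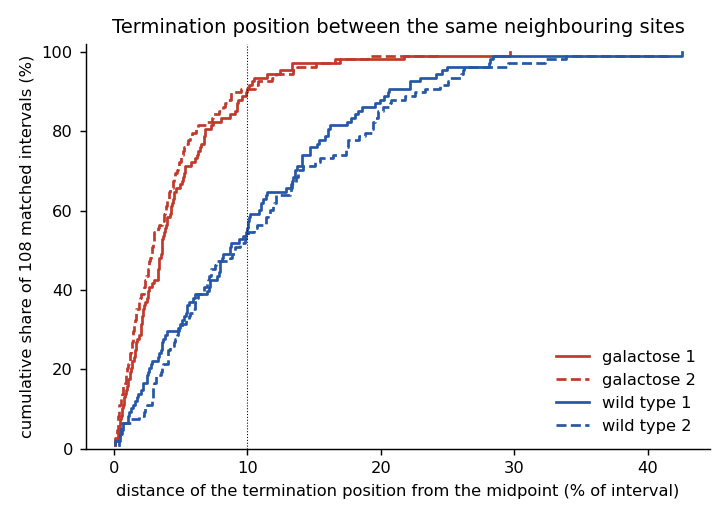
Cumulative share of the 108 matched intervals (vertical axis, percent) by the distance of the termination position from the midpoint (horizontal axis, percent of the interval), 1 line per sample, with a dotted line at 10%. The 2 galactose lines rise well before the wild-type lines, with 98 and 98 intervals against 59 and 58 left of the dotted line.

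With 1 fork speed in the fit, a difference in start time between the bounding sites moves the meeting point of their forks, and forks that pass through a partly used site move it as well. The median difference in start time between the 2 bounding sites was 0.831 and 0.642 min in galactose, against 2.10 and 2.04 min in wild type. On chromosome XIV between 635896 and 691521 termination lay 25.8 and 26.5 kb from the left site in galactose, against 41.5 and 44.2 kb in wild type (difference -16.7 ± 1.25 kb, SE; limma adjusted p = 0.000185). The right site of this interval was used at 1 in both galactose samples, against 0.528 and 0.616 in wild type, and the wild-type left site started 9.22 and 11.1 min before it. In galactose the gap was 1.19 and 0.729 min in the opposite direction.

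On chromosome XVI between 511710 and 563674 termination lay 24.8 and 25.8 kb from the left site in galactose, against 13.4 and 12.4 kb in wild type. On chromosome VII between 999785 and 1063451 it lay 35.2 and 33.0 kb from the left site in galactose, against 46.4 and 46.2 kb in wild type. Both moved toward the middle of their interval. On chromosome XII between 92021 and 139146 it lay at 27.7 and 25.7 kb in galactose, against 17.3 and 15.8 kb in wild type, and on chromosome IV between 158375 and 212180 at 20.2 and 20.4 kb in galactose, against 15.0 and 4.56 kb in wild type. The wild-type samples of the chromosome IV interval differed from each other by almost as much as the group means did.

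The width of the termination zone, the distance over which the rightward share falls from 75% to 25% of its local range, gave little. Its median was 0 kb in all 4 samples, since the fits put most terminations of an interval at 1 point. It was narrower in galactose in 6 intervals (5.56%) and wider in 0, against 16 and 1 at an unadjusted p under 0.05. Leaving out 1 sample gave 0 to 29 narrower and 0 to 2 wider.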

How the data were processed

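The authors fitted fork paths to strand-specific Okazaki fragments of each sample and deposited, per the labels, fork segments with ends in bases and minutes, with a direction and a probability given as a fraction from 0 to 1, and the weighted mean time in minutes every 500 bases. No aligner, build or fitting program is named by them. All longer segments ran at 2900 bases per minute. Joined sites, windows holding at least 50% of their positions, and intervals were fitted by limma 3.58.1 under R 4.3.3 (lmFit, eBayes; galactose minus wild type; 4 samples; no covariates; two-sided; Benjamini-Hochberg threshold 0.05). Measures per sample were compared by exact permutation in Python 3.11.15 with numpy 2.4.6, pandas 2.3.3 and scipy 1.17.1; figures used matplotlib 3.10.9. A sample in the text is numbered in accession order. The reading of fork events, travel and direction, and limma on sites, were tested on simulated data. The simulated sites had normal noise of equal size and no limits at 0 and 1, unlike the real values. Windows, times and intervals were not simulated. The members, region lists and tests were chosen with earlier results of these data known. Named sites passed the threshold, with groups that do not overlap and a gap between groups above the gaps within them: the 10 largest gains among unlisted sites, the 10 among weak sites, and the 10 largest losses. Named regions are the 5 runs of at least 3 windows with the largest change in each direction, and named intervals the 5 largest shifts. Alternatives varied the minimum probability, the joining distance, the scale, the variance model, the windows, the samples and the zero of time. Lists that need gene or origin positions were not used, because the build is not given in the sources used here.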

Additional observations from a re-analysis of the deposited data

How the results depend on the processing

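Of the named sites, 412 of 480 alternatives kept direction and side of the threshold, 57 lost significance and 11 changed sign; for named regions of direction 64 of 90 kept both, for times 18 of 50, and for intervals 27 of 28, and most losses came from leaving out a sample. The site on chromosome VII at 571666 changed to 0.171 when sites were joined within 5 or 10 kb or when the strongest site within 10 kb was taken, an alternative chosen after seeing the data. The site on chromosome XII at 730819 changed to 0.150 under the same 3 and in the fit of 3 groups with glucose, that on XVI at 379094 to 0.304 and that on V at 217668 to 0.571 when joined within 10 kb or by the strongest site. These changes follow from joining neighbouring sites. Sites lower in galactose numbered 10 at a minimum probability of 0.3, 9 when joined within 10 kb and 11 by the strongest site within 10 kb. Leaving out 1 sample gave 81 to 100 sites higher and 3 to 46 lower, 0 to 8.77% of windows more rightward and 0 to 8.94% more leftward, and 0% earlier. Windows earlier in galactose were 0% with a variance trend, 4.74% with the robust fit and 0% after median centring. Termination positions farther right numbered 14 to 31 and farther left 11 to 30 with 1 sample left out; narrower zones numbered 0 to 29 and wider zones 0 to 2. Narrower zones numbered 2 with bounding sites of at least 0.5, and 10, with 2 wider, between 90% and 10% of the range. The number of sites in galactose over wild type was 1.27 at a minimum of 0.3, and the ratio of mean probability was 1.39, 1.27 and 1.23 at minimums of 0.05, 0.2 and 0.3 and 1.36 without chromosome IV. With classes set by wild type 2 and the change measured from wild type 1, the gains were 0.426 unlisted, 0.241 weak, 0.226 middle and 0.122 strong; with the mean of both they were 0.469, 0.233 and 0.0659 for unlisted, weak and strong, and with joining within 10 kb 0.212 for middle sites. The distance of termination from the midpoint differed by -7.32 percentage points with bounding sites of at least 0.1. The cause of the other changes was not tested. With 1 sample left out, the lone sample of its group is assumed to vary like the other group. No paired analysis was possible because the labels give letters and no replicate numbers shared between groups. Depth is unknown, and platform cannot be told apart from strain.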

Other observations

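Sites near chromosome ends and beside the unsampled stretch of chromosome XII were listed separately. Of 41 sites within 30 kb of a chromosome end, 16 rose and 5 fell, against 163 and 17 of all 396, with summed probabilities of 14.9 and 15.4 in galactose, 4.99 in the glucose sample, and 9.66 and 8.97 in wild type. Glucose lay below both wild-type samples there. The profile of chromosome XII has no positions between 449949 and 513478, and of 3 sites within 50 kb of that stretch 2 rose.

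Unlisted sites that rose were found on 14 of the 16 chromosomes. On chromosome IV 11 of 15 unlisted sites rose, on chromosome XV 5 of 10 and on chromosome XII 5 of 7. Chromosomes IX and XIV had 0, with 2 and 1 unlisted sites, all of them listed in 1 galactose sample alone. The 23 unlisted sites listed in 1 galactose sample alone had mean probabilities of 0.0901 in galactose 1 and 0.285 in galactose 2. None passed the threshold by limma, and none could. The 0 entered for the other galactose sample sets the 2 galactose values farther apart than the group means. Of 49 sites that only wild type listed, 25 lay more than 11 kb from any galactose site, at mean probabilities of 0.115 and 0.189 in wild type.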
